A study of Mus musculus with 94 samples.

Results

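The effect of trisomy on the RNA of L1 elements, the long interspersed elements of type 1, was described in the hippocampus of mice that received no drug. The comparison set 8 trisomic Ts65Dn mice given water (TS-nt) against 8 wild-type littermates given water (WT-nt), chosen by their sample labels, which is 16 of the 94 libraries of the series. All mice were males with an age label of 3 to 4 months. They were bred from B6EiC4Sn.BLiA-Ts(1716)65Dn/DnJ females and B6C3F1/OlaHsd hybrid males, and were thus of mixed strain background. Other mice of both genotypes drank lamivudine, a nucleoside inhibitor of reverse transcriptase, at 3 mg/kg (13 trisomic, TS-t, and 17 wild-type, WT-t). They served as a separate look at the same genotype contrast. The drug was given for 4 months and tissue was taken afterwards. Whether the age label refers to the start or to the time of sampling is therefore not clear. The cortex of the same 16 non-treated mice was also sequenced. The study's methods mention that samples of a condition were pooled in groups of 3 before RNA quality control, whereas each library carries the label of 1 mouse. Libraries are therefore named by mouse below, with mouse numbers that are names only. The table held L1 counts and no gene counts, so neither the tissue nor the trisomy could be checked by marker genes here.

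L1s are retrotransposons that move through an RNA copy, and an intact element encodes an RNA-binding protein and a protein with endonuclease and reverse transcriptase activity. In the mouse, the subfamilies whose names begin with L1Md are the young ones, and those of the L1Md_T, L1Md_A and L1Md_Gf types still hold mobile copies. The L1M and HAL1 subfamilies spread before the rodent lineage arose, and the Lx, L1_Mus and L1VL subfamilies lie between these ages. Most copies are truncated at the 5′ end, and much of the RNA counted over them belongs to host transcripts in which the element is embedded. In the brain, L1 activity has been studied mainly in neural progenitors and in ageing tissue. Ts65Dn mice carry a small extra chromosome made of the distal part of mouse chromosome 16 (MMU16), which holds many orthologues of human chromosome 21 genes, and of the centromeric end of MMU17.

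The positions of single elements were taken from the study's element lists (GRCm38/mm10), and 4 of the elements described below lie in annotated transcripts whose sequence could be read. They are a called element, the element of smallest p among those lower in TS-nt, an element that the study listed and the main element of a called subfamily. L1Md_F2_dup59906 (chr17:3111781-3112547, minus strand) is a young element in an exon of Gm21926, a transcribed processed pseudogene on the same strand. Lx7_dup11750 (chr5:107390722-107393003, minus strand) partly covers an exon of the antisense RNA Gm42902. L1_Mus3_dup17767 (chr7:59329352-59330039, minus strand) lies in an intron of Snhg14, a long non-coding RNA of the imprinted Ube3a region, and in the single exon of A230103L15Rik. L1MC4_dup2661 (chr9:46921094-46921851, plus strand) is an old element in an exon of the long intergenic non-coding RNA 2900052N01Rik. The last 300 transcribed bases of each, or all 273 of Lx7_dup11750, are given 5′ to 3′ on the strand of the element, read from the GENCODE transcripts of this build, with the polyadenylation hexamer AATAAA in capitals. They span chr17:3111790-3112089, chr5:107392731-107393003, chr7:59329352-59329651 and chr9:46921552-46921851.
L1Md_F2_dup59906: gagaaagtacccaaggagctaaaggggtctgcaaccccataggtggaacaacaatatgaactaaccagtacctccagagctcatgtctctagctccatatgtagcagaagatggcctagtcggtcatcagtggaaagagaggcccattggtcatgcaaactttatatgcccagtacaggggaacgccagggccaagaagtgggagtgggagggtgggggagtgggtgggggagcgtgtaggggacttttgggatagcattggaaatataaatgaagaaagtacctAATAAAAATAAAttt
Lx7_dup11750: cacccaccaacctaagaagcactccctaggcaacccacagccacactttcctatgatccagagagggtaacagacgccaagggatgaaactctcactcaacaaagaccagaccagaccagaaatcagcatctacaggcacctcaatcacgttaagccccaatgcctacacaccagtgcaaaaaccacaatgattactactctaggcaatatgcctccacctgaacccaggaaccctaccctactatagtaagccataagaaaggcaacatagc
L1_Mus3_dup17767: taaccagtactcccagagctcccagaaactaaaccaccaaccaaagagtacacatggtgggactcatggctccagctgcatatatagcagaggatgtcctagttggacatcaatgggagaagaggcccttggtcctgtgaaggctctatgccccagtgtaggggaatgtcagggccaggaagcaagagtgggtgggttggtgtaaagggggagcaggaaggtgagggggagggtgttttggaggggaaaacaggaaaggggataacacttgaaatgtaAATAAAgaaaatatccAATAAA
L1MC4_dup2661: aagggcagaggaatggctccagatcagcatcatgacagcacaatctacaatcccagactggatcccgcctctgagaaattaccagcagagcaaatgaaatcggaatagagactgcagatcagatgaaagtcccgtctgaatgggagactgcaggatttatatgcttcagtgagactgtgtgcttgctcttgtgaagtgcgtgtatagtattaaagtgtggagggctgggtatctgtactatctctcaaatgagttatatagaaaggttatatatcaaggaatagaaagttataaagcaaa
The hexamer occurred 2 times in L1Md_F2_dup59906, side by side without overlap at its end, and 2 times in L1_Mus3_dup17767, but 0 times in the Lx7 and L1MC4 stretches. Its reverse complement, TTTATT, occurred 0 times in each of the 4 stretches. Among the last 300 bases of 131058 annotated transcripts, 35.4% held AATAAA on the transcribed strand and 16.4% held it on the other. That background is of transcript ends, whereas the stretches were chosen by element and need not end a transcript. The 273 bases of Lx7_dup11750 lie at the 5′ end of that element.

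The 16 libraries held 186434 to 403378 L1 counts each, spread over 186947 of the 430083 annotated elements. Only 4238 elements (0.985%) passed the filter on low counts, and they carried 43.9% to 68.8% of the L1 counts of a library. The number of elements with a count ran from 19915 to 74670. TS-nt mice 1, 5 and 8 and WT-nt mouse 1 had the fewest (19915 to 25730), TS-nt mouse 4 had the most, and these 5 libraries lay more than 1.4-fold from the median. Results that changed call or sign without them are given with and without them. A mean of 36315 elements (SD 17076, n = 8) had a count in TS-nt and 37785 (SD 9437, n = 8) in WT-nt, a difference of -1469 elements (exact permutation test, two-sided p = 0.855). The L1 totals of TS-nt mice varied more, with an SD of 0.34 on the log2 scale against 0.097 in WT-nt, but the ratio of the SDs, 1.81 on the log2 scale, did not pass the exact permutation test (two-sided p = 0.0948). Levels and log2 fold changes of elements and subfamilies below are relative to the L1 total of the tested elements or subfamilies. Shares of classes and of the most abundant elements are percents of all L1 counts of a library. In both, a change shared by all L1s would not be seen.

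No shift in the balance of young and old L1s with trisomy was detected. Young L1Md elements made up 11.3% ± 0.633 of L1 counts in TS-nt and 11.4% ± 0.587 in WT-nt (SD, n = 8 each). Old elements made up 44.1% ± 2.87 and 43.2% ± 2.73, and the other, mainly rodent, elements 44.6% ± 2.36 and 45.3% ± 2.23. The lowest, median and highest young shares were 10.4%, 11.1% and 12.5% in TS-nt against 10.3%, 11.6% and 12.0% in WT-nt, so the groups overlapped over nearly their whole range. The differences were -0.17 percentage points for young, 0.90 for old and -0.73 for the rest, and -0.05 for the log2 ratio of young to old, each with an adjusted p of 0.584 over these 4 (exact permutation tests, two-sided).

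The old share moved with the number of elements that had a count. It was 46.8% to 49.3% in the 4 mice with the fewest elements, of both genotypes, and 39.6% in TS-nt mouse 4, which had the most. Over the 16 mice, Pearson's r of -0.81 had a permutation p of 4e-05 and Spearman's rho of -0.80 one of 0.00038, with adjusted p = 0.00012 and 0.00114 over the 3 sets of mice computed. Without the 2 mice farthest from the median number of elements, r was -0.84. Within TS-nt r was -0.87 and rho -0.74 (exact permutation p = 0.0065 and 0.0458, adjusted p = 0.00975 and 0.0688, n = 8), and without the 2 farthest mice r was -0.92 and rho -0.54. Within WT-nt r was -0.79 and rho -0.57 (exact permutation p = 0.0295 and 0.151, adjusted p the same, n = 8), but without the 2 farthest mice r was -0.30, so in that group the relation rested on them.

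**Figure D1:**
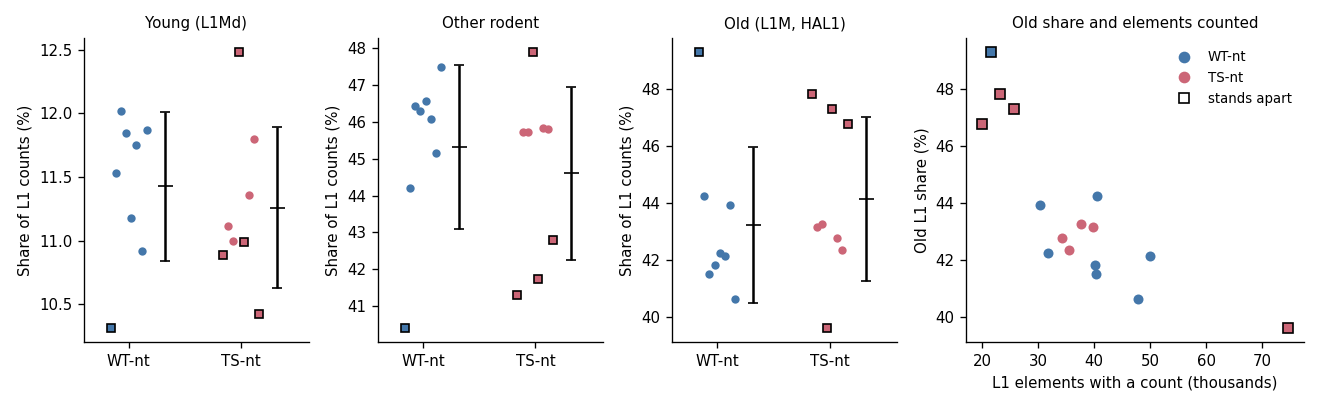
Share of all L1 counts (%) taken by young, other rodent and old elements in each WT-nt and TS-nt mouse (points, with mean ± SD, n = 8 each), and the old share against the number of elements with a count (right). Squares mark the 5 libraries that stand apart in that number, and the 4 of them with the fewest elements have the highest old shares, 46.8% to 49.3%.

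Among single elements, 3 of 4238 were upregulated in TS-nt at an adjusted p of at most 0.1 and 0 were downregulated (0.0708% of those tested, edgeR quasi-likelihood test with Benjamini-Hochberg adjustment). At an unadjusted p below 0.05 there were 171 (4.03% of those tested), 78 higher and 93 lower in TS-nt, and the next adjusted p after the 3 calls was 0.389. This lean was not kept with DESeq2 size factors in edgeR, which gave 90 higher and 84 lower, and without the libraries that stand apart it was 109 higher and 174 lower of 6539 elements. For old elements alone it was 31 higher and 24 lower with all libraries and 38 higher and 49 lower without those libraries. At that unadjusted level 25 of 707 young elements (3.54%), 91 of 2240 other rodent elements (4.06%) and 55 of 1291 old elements (4.26%) were reached, each near the share over all elements. The median log2 fold change was -0.06 for young, -0.06 for other rodent and 0.03 for old elements, against -0.03 over all. In the elements tested, the interquartile range of the log2 fold changes was -0.36 to 0.27.

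L1Md_F2_dup59906, the young element shown above, had the smallest p. Its level was 1543, 2028 and 2336 counts per 1000000 (CPM; lowest, median and highest) in TS-nt and 1021, 1220.0 and 1489 CPM in WT-nt. The groups did not overlap, with all TS-nt mice higher, the only element of the 4238 of which this was true (0.0236% of those tested). The means were 1975 ± 324 and 1231 ± 178 CPM (SD, n = 8 each), a log2 fold change of 0.68 (SE 0.15, adjusted p = 0.0851, edgeR).

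L1_Mm_dup4871 (chr16:31386704-31387928, minus strand) lies between genes, 7571 bases from 1700007E05Rik. It ran at 1659, 2251 and 2458 CPM in TS-nt and at 703, 1377 and 1757 CPM in WT-nt, and 7 of the 8 TS-nt mice lay above all WT-nt mice. The log2 fold change was 0.71 (SE 0.17, adjusted p = 0.0851, edgeR). It held 25.0% of the counts of its subfamily, L1_Mm.

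The third call, Lx_dup7185, rested on few counts. Only 1 of the 8 WT-nt libraries held it, with 3 counts, whereas 7 of the 8 TS-nt libraries together held 77, which is 0, 0 and 20.0 CPM (lowest, median, highest) against 0, 60.4 and 142 CPM. The ratio of the pooled levels was 25.2, with a 95% counting interval of 8.32 to 125 (exact binomial, counting error only). The fitted log2 fold change was 4.27 (SE 1.01, adjusted p = 0.0851, edgeR), a value that depends on the prior count. The WT-t mice did not share the near absence of WT-nt, with 45.3 ± 52.9 CPM (SD, n = 17) against 49.4 ± 35.9 CPM in TS-t (SD, n = 13). Its position was not used here. The first pair of calls, with L1Md_F2_dup5854, Lx7_dup11750, Lx5c_dup5368 and L1_Mus3_dup17767 below, were listed by the study for this comparison on these same libraries, so their direction here is not independent evidence.

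All 3 calls were thin in replication. With each of the 16 libraries left out in turn, the number of calls ran from 0 to 3, with 0 when TS-nt mouse 2, 6 or 7 or WT-nt mouse 3, 4, 6, 7 or 8 was left out, and L1Md_F2_dup59906 kept an adjusted p of at most 0.1 in 6 of them, L1_Mm_dup4871 in 4 and Lx_dup7185 in 4. Their log2 fold changes stayed between 0.65 and 0.74, 0.62 and 0.79, and 4.01 and 6.27. Without the 5 libraries that stand apart, L1_Mm_dup4871 alone was called (log2 fold change 0.95, adjusted p = 0.047, 6539 elements tested, edgeR). In that fit L1Md_F2_dup59906 was at 0.82 (adjusted p = 0.141, edgeR) and Lx_dup7185 at 3.89 (adjusted p = 0.319, edgeR).

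**Figure D2:**
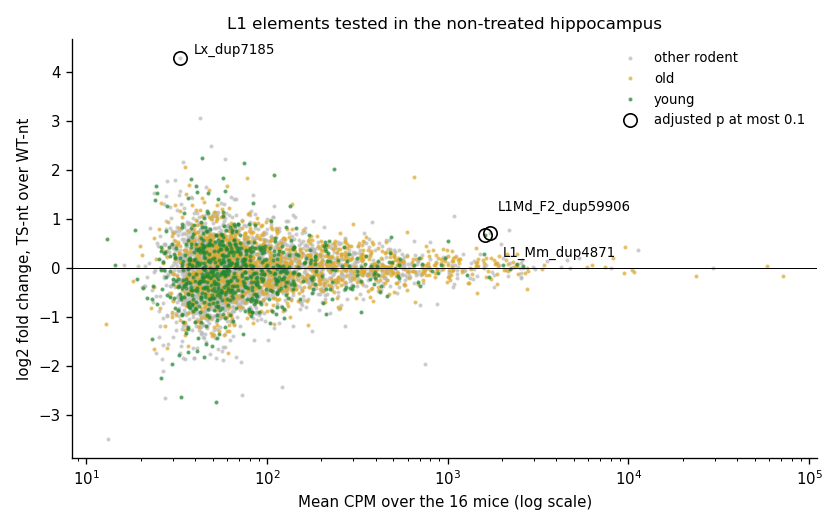
Log2 fold change of TS-nt over WT-nt against mean CPM (log scale) for the 4238 L1 elements tested, coloured by age class. The 3 circled elements have an adjusted p of 0.0851, and 2 of them are abundant with log2 fold changes of 0.68 and 0.71.

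Both abundant calls showed a like difference in the lamivudine-treated mice, which share no library with the non-treated ones. L1Md_F2_dup59906 stood at 1931 ± 336 CPM in TS-t and 1421 ± 312 CPM in WT-t (log2 fold change 0.44, adjusted p = 0.185, edgeR). L1_Mm_dup4871 stood at 2131 ± 583 and 1537 ± 322 CPM (log2 fold change 0.47, adjusted p = 0.185, edgeR). Neither passed the threshold there by edgeR, while both did by DESeq2. The difference between the non-treated and the treated contrast had unadjusted p = 0.207 and 0.259 (edgeR interaction term). For the third call, Lx_dup7185, the treated log2 fold change was 0.11, and the same term had unadjusted p = 0.000526 (edgeR). The adjusted p of the edgeR interaction term was 0.9998 for each of the 3.

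The other elements with the smallest p among those higher in TS-nt were not called. L1Md_F2_dup5854 (chr2:45547199-45547811, plus strand, between genes) was at 173 ± 107 CPM in TS-nt and 46.1 ± 30.0 in WT-nt (log2 fold change 1.89, SE 0.51, adjusted p = 0.389, edgeR). Lx6_dup11967 was at 83.3 ± 64.2 and 14.1 ± 10.5 CPM, and L1_Mus1_dup3965 at 191 ± 53.8 and 89.3 ± 41.3 CPM. L1ME1_dup2108 (chr7:109047222-109047771), which overlaps an exon of Ric3 on the opposite strand, a chaperone of nicotinic acetylcholine receptors, was at 745 ± 302 and 448 ± 130 CPM. Lx7_dup11598 reached 10 counts over 4 WT-nt libraries and 93 over all 8 TS-nt libraries, a pooled ratio of 9.15 (95% counting interval 4.76 to 19.7, counting error only). These 4 had log2 fold changes of 2.48, 1.08, 0.73 and 3.06 and adjusted p from 0.521 to 0.672 (edgeR). In treated mice theirs were 0.57, -0.10, 0.16 and -0.09, and that of L1Md_F2_dup5854 was 0.49. Lx7_dup11598 and L1Md_F2_dup5854 joined the 3 calls when DESeq2 was run on the non-treated mice alone.

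No element was called lower in TS-nt (93 at an unadjusted p below 0.05 in edgeR). Lx7_dup11750, the Gm42902 element shown above, had the smallest p in this direction. It ran at 503, 672 and 732 CPM in TS-nt and 579, 1249.7 and 1503 CPM in WT-nt (log2 fold change -0.73, SE 0.20, adjusted p = 0.441, edgeR). The TS-nt mice lay close together, and WT-nt mice 2 and 8 fell within their range. Lx5c_dup5368 (chr5:104640220-104641102, plus strand), between genes on the same chromosome, was the only element with every TS-nt mouse below every WT-nt mouse (0.0236% of those tested). It had 0 counts in 4 TS-nt mice, a median of 10.7 CPM and a highest value of 101 CPM, against 106, 185 and 425 CPM in WT-nt. Its log2 fold change of -2.41 (SE 0.79) had an adjusted p of 0.884 (edgeR). The pooled ratio was 0.184 (95% counting interval 0.132 to 0.252, counting error only, without the spread between mice). In treated mice the log2 fold changes were -0.10 for Lx7_dup11750 and -0.35 for Lx5c_dup5368.

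The remaining elements of lowest p in this direction had adjusted p from 0.704 to 0.884 (edgeR). L1ME4a_dup1262, the most abundant of them, was at 1206 ± 304 CPM in TS-nt and 1706 ± 239 CPM in WT-nt (log2 fold change -0.50). Lx6_dup5549 was at 53.9 ± 48.2 and 149 ± 44.2 CPM, Lx7_dup16185 at 166 ± 94.6 and 375 ± 222 CPM, and L1ME3_dup314 at 181 ± 62.4 and 313 ± 94.8 CPM. L1_Mm_dup2112, of the same subfamily as a called element, was at 84.9 ± 44.4 and 193 ± 110 CPM, and L1MC5_dup3240 at 105 ± 85.8 and 233 ± 86.0 CPM. Of these 6, L1MC5_dup3240 had a log2 fold change of -1.15 in the non-treated mice and a smaller one of -0.49 in the treated mice (unadjusted p = 0.0888, edgeR). The other 5 lay between -0.06 and 0.28 in the treated mice. L1_Mus3_dup17767, the Snhg14 element shown above and listed by the study on these samples, ran at 0, 24.9 and 80.9 CPM in TS-nt and 61.7, 96.6 and 190 CPM in WT-nt (log2 fold change -1.92, SE 0.68, adjusted p = 0.904, edgeR). Its log2 fold change in treated mice was 0.29.

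**Figure D3:**
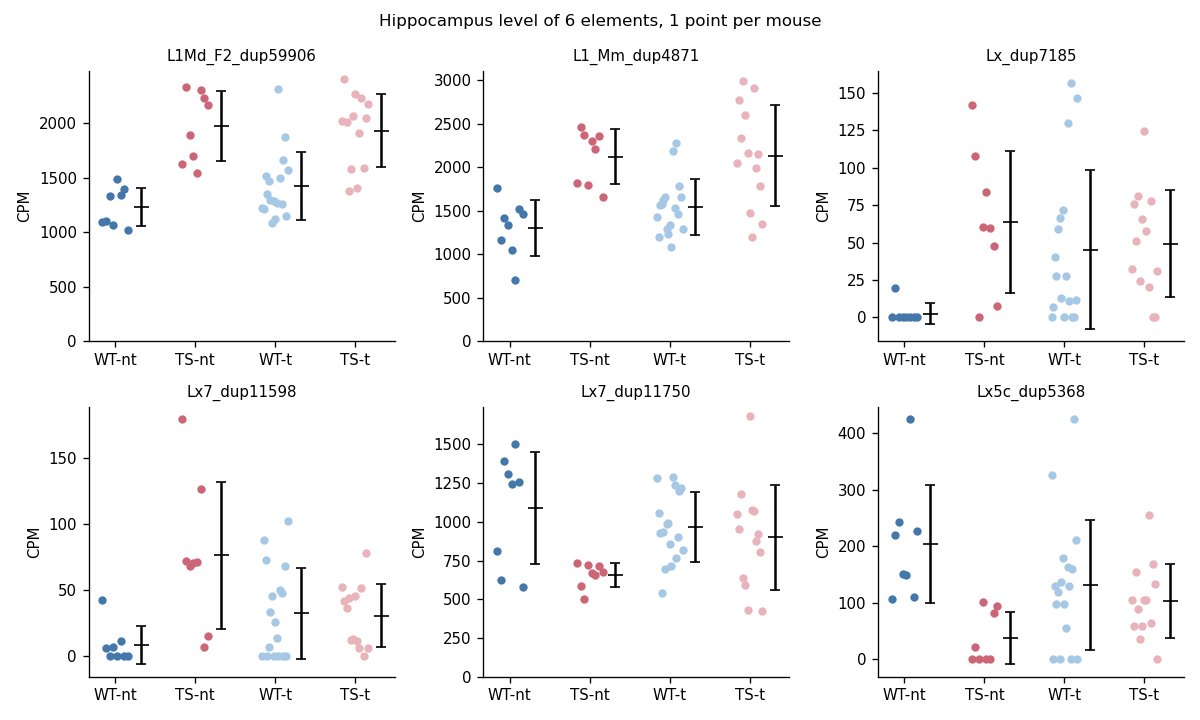
CPM in the hippocampus of every mouse of the 4 groups (points; mean ± SD beside them; n = 8, 8, 17 and 13) for 6 elements. L1Md_F2_dup59906 separates TS-nt from WT-nt fully, from 1543 CPM up against 1489 CPM down, whereas the treated mice overlap in all 6.

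Elements on MMU16 and MMU17, the chromosomes that contribute to the Ts65Dn extra chromosome, could be followed only for those the study listed, and it chose them on libraries of this series. Of the 13 such elements reported here 8 passed the filter, 2 of which are the calls above. All 8 had a log2 fold change above 0 in TS-nt, from 0.13 to 0.71 with a median of 0.52. Over all elements tested the median was -0.03 and 47.4% were higher. The study listed these elements in comparisons with WT-nt mice, in hippocampus or cortex, so their sign here is not independent evidence. L1MC1_dup5016 and L1Md_A_dup15761 turned below 0 without the libraries that stand apart. As background, the extra segment runs on MMU16 from about Mrpl39 (which starts at chr16:84717576) to the telomere and on MMU17 from the centromere to about Pde10a (which ends at chr17:8986648). This split into inside and outside was made after the values were seen.

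Inside the segment, 4 of 7 listed elements were tested, with a median log2 fold change of 0.39. L1Md_F2_dup59906 had a 95% interval of 0.38 to 0.98. L1ME3Cz_dup944 (chr16:94395910-94396630), in an exon of Ttc3, a ubiquitin ligase gene, was at 282 ± 78.6 CPM in TS-nt and 194 ± 75.8 CPM in WT-nt (log2 fold change 0.54, SE 0.27, adjusted p = 0.998, edgeR). L1Md_F_dup3732 (chr16:98015457-98016275) was at 382 ± 145 and 324 ± 82.6 CPM (0.24, SE 0.28). L1MC1_dup5016 (chr16:94750285-94751881), in introns of the potassium channel gene Kcnj6 and of Gm41505, was at 351 ± 273 and 319 ± 106 CPM (0.13, SE 0.41), and TS-nt mouse 1 alone reached 963 CPM. Without that mouse its log2 fold change was -0.26. The other 3, in Dscam, a neuronal cell adhesion gene, held 4 to 18 counts per group and were not tested.

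Outside the segment, 4 of 6 listed elements were tested, with a median log2 fold change of 0.52. L1_Mm_dup4871 lies there, in the proximal part of MMU16, with a 95% interval of 0.38 to 1.03. L1Md_F2_dup57795 in an intron of Fgd4, L1VL4_dup5634 and L1Md_A_dup15761 had log2 fold changes of 0.51, 0.44 and 0.54 with SEs of 0.46 to 0.81, and adjusted p of 0.998 for each (edgeR).

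A pair of elements, Lx3B_dup3459 and Lx5c_dup5368, were near absent in the hippocampus of some mice and also in the cortex of those same mice. Lx3B_dup3459, 1 of the 5 most abundant elements, had at most 40 counts in WT-nt mice 1 and 2 and TS-nt mice 1, 5 and 8, and 1227 to 4169 counts in the other 11 non-treated mice. In the cortex of the same 5 mice it had at most 49 counts, and over all 46 mice with both tissues the same 11 fell below 100 counts in hippocampus and in cortex. The split crossed genotypes, with 2 of 8 WT-nt, 3 of 8 TS-nt, 3 of 17 WT-t and 3 of 13 TS-t mice low. Of the low non-treated mice, WT-nt mouse 1 and TS-nt mice 1, 5 and 8 were those with the fewest elements with a count in hippocampus. WT-nt mouse 2, with 40474 such elements, was not. Whether the split is tied to that number was not tested. With this split, the genotype contrast of Lx3B_dup3459 was wide (log2 fold change 0.36, SE 0.96). Lx5c_dup5368 behaved similarly at a lower level: the 9 mice without a count in the hippocampus (4 TS-nt, 4 WT-t and 1 TS-t) also had 0 counts in the cortex, where 13 mice had none. In cortex, Lx_dup7185 reached 4 counts over 2 WT-nt libraries and 108 over 7 TS-nt libraries, a ratio of 27.0 (95% counting interval 10.3 to 101), and TS-nt mouse 3 lacked it in both tissues. Over the 46 mice the tissues matched less closely for this element, with 14 mice lacking it in hippocampus, 13 in cortex and 9 in both. Lx7_dup11598 had 25 and 154 counts in cortex, a ratio of 6.17 (4.02 to 9.83, both intervals counting error only). It was lacking in 11 mice in hippocampus, 11 in cortex and 6 in both, and a mouse without a hippocampus count had up to 18 counts in cortex. L1MA8_dup3544 showed the opposite, with 281 ± 230.0 CPM in WT-nt and 1016 ± 521 CPM in TS-nt hippocampus and only 32.1 ± 35.8 and 24.7 ± 39.6 CPM in cortex. Its hippocampus log2 fold change of 1.85 (SE 0.82) had an adjusted p of 0.998 (edgeR), and that in treated mice was 0.53.

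**Figure D4:**
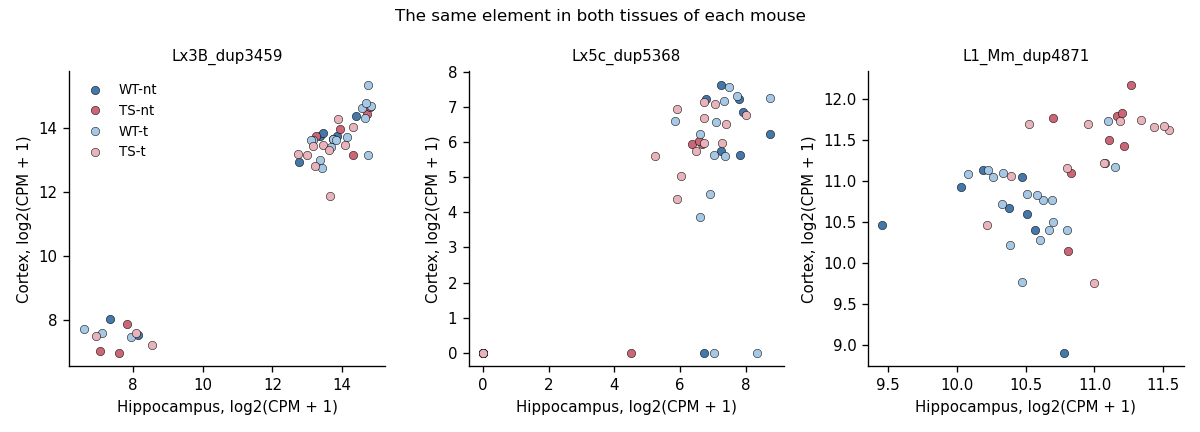
Level in cortex against hippocampus, each as log2(CPM + 1), for 3 elements in the 46 mice with both tissues, coloured by group. Lx3B_dup3459 falls into 11 low and 35 high mice with the same mice low in both tissues, Lx5c_dup5368 has 9 mice at 0 in both, and L1_Mm_dup4871 is continuous.

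The 5 most abundant elements together held 6.40% to 19.2% of the L1 counts of a mouse, and none passed the genotype test. L1ME3Cz_dup549 led with 68117 ± 16160.5 CPM in TS-nt and 76026 ± 28380 CPM in WT-nt (log2 fold change -0.16, SE 0.22). L1MEd_dup2089, Lx7_dup29483 and L1MEi_dup274 had log2 fold changes of 0.03, 0.01 and -0.16, with adjusted p of 0.998 for each (edgeR). Without the libraries that stand apart, L1ME3Cz_dup549 and L1MEi_dup274 turned to 0.13 and 0.11. These abundant elements make up nearly all of their subfamilies, 97.7% for L1ME3Cz_dup549, 87.8% for L1MEd_dup2089 and 98.1% for L1MEi_dup274 but 33.5% for Lx7_dup29483. Counts of L1ME3Cz_dup549 were 2.83 to 3.32 times those of L1MEi_dup274 in every one of the 16 mice, although each varied widely among mice. WT-nt mouse 1 was the highest for both, at 137181 and 43893 CPM.

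Summed by subfamily, 2 of 132 were upregulated in TS-nt, both old (1.52% of those tested), and 0 were downregulated. At an unadjusted p below 0.05 there were 11 (8.33%), 5 higher and 6 lower. L1MC4 was at 15435 ± 1022 CPM in TS-nt and 13297 ± 1653 CPM in WT-nt (SD, n = 8 each), a log2 fold change of 0.22 (SE 0.060, adjusted p = 0.0604, edgeR). No TS-nt mouse exceeded all WT-nt mice, because WT-nt mouse 1 stood at 17230.1 CPM. L1MC4_dup2661, the element in 2900052N01Rik shown above, supplied 38.1% of its counts and ran at 8963, 10501 and 14946 CPM in TS-nt against 5064, 8150 and 13058 CPM in WT-nt (log2 fold change 0.43, SE 0.17, unadjusted p = 0.0158, adjusted p = 0.998, edgeR). Without the most abundant element of each subfamily, L1MC4 fell to 0.08 (adjusted p = 0.667). In treated mice this element had nearly the same difference, 12846 ± 4025 against 9536 ± 1767 CPM (log2 fold change 0.43, adjusted p = 0.473, edgeR; called by DESeq2). It was named after its values were seen, as were L1MA8_dup3544 and L1MA8_dup3848.

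L1MA8 was at 5717 ± 627 CPM in TS-nt and 4897 ± 371 CPM in WT-nt (log2 fold change 0.22, SE 0.063, adjusted p = 0.0604, edgeR), and 6 of 8 TS-nt mice lay above all WT-nt mice. Its most abundant element, L1MA8_dup3848, held only 8.86% of its counts, and without it the log2 fold change was still 0.22 (adjusted p = 0.336). Another element, L1MA8_dup3544, held 7.10% of the subfamily's counts, with 339 counts over the WT-nt and 1264 over the TS-nt libraries. The subfamily sum without L1MA8_dup3544 was not tested. Of the 26 tested elements of L1MA8, 20 were higher in TS-nt, where 47.4% of all tested elements and 52.6% of old ones were. L1MA8 was singled out by the sum over its elements in these same mice, so this count is not separate support. Among the 20, only L1MA8_dup3544 had an unadjusted p below 0.05 (edgeR), which 4.03% of all tested elements reached. Neither subfamily was called by DESeq2 with the 4 groups (adjusted p = 0.102 for both) or in edgeR with only the non-treated mice (0.176), whereas without the libraries that stand apart both were (0.0099 for L1MC4 and 0.0848 for L1MA8). With 1 library left out, 0 to 3 subfamilies were called, with 0 in 13 of the 16 fits, all but those without TS-nt mouse 1, TS-nt mouse 4 or WT-nt mouse 1. In treated mice their log2 fold changes were 0.09 and 0.06 (adjusted p = 0.453 and 0.598, edgeR).

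The next subfamilies by p were not called. L1_Mus4 was at 8102 ± 855 CPM in TS-nt and 9246 ± 632 CPM in WT-nt (log2 fold change -0.19, adjusted p = 0.281, edgeR), and Lx2 at 8460.1 ± 919.95 and 9448 ± 759 CPM (-0.16, adjusted p = 0.401). L1ME5, with 78.3 ± 37.9 and 43.6 ± 13.2 CPM, had the widest shift (0.81, SE 0.32, adjusted p = 0.401) on few counts. By class, 51 of 88 old and 13 of 38 other rodent subfamilies were higher in TS-nt, with medians of 0.02 and -0.02 against 0.00 over all 132. Without the libraries that stand apart, these counts were 37 of 89 and 19 of 38, so the lean of old subfamilies toward TS-nt was not kept. In treated mice, 36 of 88 old and 23 of 38 other rodent subfamilies were higher in TS-t.

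None of the 6 young subfamilies passed the genotype test in the non-treated hippocampus. L1Md_F2, the most abundant, was at 59236 ± 1989 CPM in TS-nt and 60303 ± 1455 CPM in WT-nt (log2 fold change -0.03, SE 0.024). L1Md_T was at 23490.3 ± 2152 and 24079 ± 1680 CPM (-0.04, SE 0.050), and L1Md_A at 14197 ± 784 and 14619 ± 985 CPM (-0.04, SE 0.045). L1Md_F3, L1Md_Gf and L1Md_F had log2 fold changes of 0.03, 0.07 and 0.11 with SEs of 0.045, 0.11 and 0.077, and L1Md_Gf turned to -0.05 without the libraries that stand apart. Their adjusted p ran from 0.781 to 0.919 (edgeR). In treated mice all 6 lay above 0, from 0.01 to 0.18, with 2 of them, L1Md_F and L1Md_F2, at unadjusted p = 0.0022 and 0.0125 and adjusted p = 0.289 and 0.307 (edgeR). The young share was 11.6% ± 0.480 in TS-t and 11.1% ± 0.497 in WT-t (SD, n = 13 and 17), a difference of 0.46 percentage points (permutation test, two-sided p = 0.0172, adjusted p = 0.0517 over the 3 classes).

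**Figure D5:**
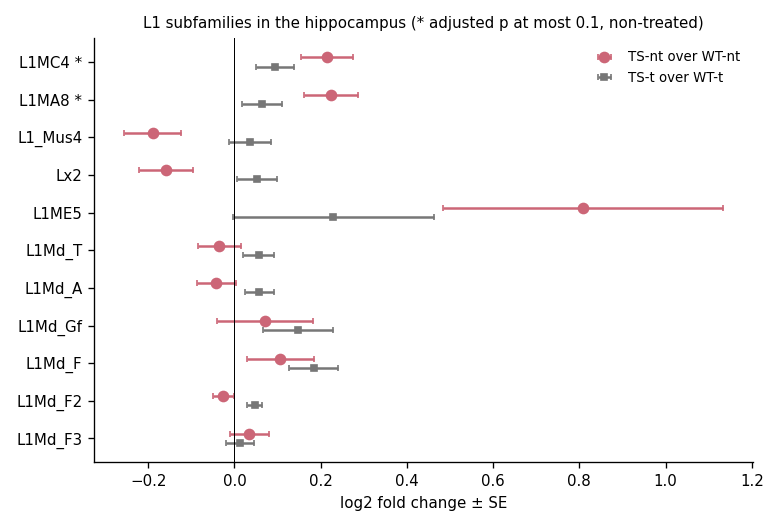
Log2 fold change ± SE for the 5 subfamilies of smallest p and the 6 young L1Md subfamilies, in non-treated (circles) and treated (squares) mice. L1MC4 and L1MA8 sit at 0.22 in non-treated mice and at 0.09 and 0.06 in treated mice, and the young subfamilies lie within 0.11 of 0 in non-treated mice.

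The same genotype contrast in treated mice gave 0 element calls in edgeR (0% of 4238, with 167 or 3.94% at an unadjusted p below 0.05) and 12 in DESeq2, 9 higher and 3 lower. The test of whether the contrast differed between non-treated and treated mice gave 0 calls in edgeR (132 at an unadjusted p below 0.05) and 0 in DESeq2 (172). Across the 4238 elements, the log2 fold changes in non-treated and treated mice had a Pearson correlation of 0.03 (genes and elements are not independent replicates). Of the 78 elements higher in TS-nt at an unadjusted p below 0.05, 47 (60.3%) were also higher in TS-t, and of the 93 lower, 51 (54.8%) were lower, against 50.7% of all elements with the same sign.

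Within mice, the genotype difference of hippocampus and cortex was compared for the 3 class shares, the 3 called elements and the 6 young subfamilies. In cortex the 3 called elements were higher in TS-nt, by 0.94 for L1_Mm_dup4871 and 0.82 for L1Md_F2_dup59906 on the log2 scale with a prior count of 2, against 0.73 and 0.67 in hippocampus. For Lx_dup7185 the mean log2 CPM was 6.13 in TS-nt and 3.76 in WT-nt cortex, against 5.91 and 3.91 in hippocampus. The cortex differences had adjusted p = 0.00932, 0.00932 and 0.0042 over the 3 (exact permutation tests, two-sided, n = 8 each), and 6, 7 and 7 of the 8 TS-nt mice lay above all WT-nt mice. Without WT-nt mouse 1 they were 0.71, 0.63 and 2.33 (exact permutation tests, adjusted p = 0.0185, 0.0168 and 0.00606). These are the same mice in which the elements were called, not a second set. The differences between tissues, hippocampus minus cortex, were -0.21, -0.15 and -0.37 (exact permutation tests over 8 and 8 mice, adjusted p = 0.691 for each). Of the 12 values, L1Md_F3 alone passed, with a genotype difference 0.25 more positive in hippocampus (0.03) than in cortex (-0.22; exact permutation p = 0.00342, adjusted p = 0.041). The cortex library of WT-nt mouse 1 stood far from the others, with 1165192 L1 counts and a young share of 21.7% against 11.5% to 13.5% in the other 15 mice, and without that mouse the value was 0.13 (adjusted p = 0.0802). TS-nt mouse 4 also had a high cortex total, 763030 L1 counts, against 258311 to 355341 in the remaining mice. Among TS-nt mice its cortex was lowest for L1_Mm_dup4871 (1134 CPM) and L1Md_F2_dup59906 (939 CPM). The cortex tests of the called elements were not run without TS-nt mouse 4.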

How the data were processed

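RNA was measured by stranded, ribosome-depleted total RNA sequencing (paired reads of 150 bases). Per the study's methods and the submitters' processing notes, reads were trimmed by the authors (Trimmomatic 0.38) and aligned by HISAT2 2.1.0 to the GRCm38/mm10 build, keeping up to 5 alignments per read, and Telescope then assigned them to annotated L1 elements (version not given in the sources used here). The deposited values are whole-number counts per element, not normalized. Telescope reassigns reads that map to several places, so counts of near-identical young copies are uncertain. The table names no positions. The study ran DESeq2. The gene table and the authors' comparison columns were not used here.

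The 46 hippocampus libraries (4 groups) entered 1 edgeR 4.0.16 quasi-likelihood fit (R 4.3.3; filterByExpr, TMM scaling, robust dispersion). P-values were adjusted by Benjamini-Hochberg over all 4238 elements or 132 subfamilies, with calls at an adjusted p of at most 0.1. CPM are TMM-scaled per 1000000 counts in the tested features. Young elements have names starting with L1Md_, old elements with HAL1 or with L1M followed by a capital letter or digit, and the rest, including 202 elements named L1M alone, are the other class. Single values used exact permutation tests over mice (numpy 2.4.6, scipy 1.17.1). The 8 against 8 design allows p down to 0.000155. Scripts were tested on simulated data.

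No library pair of the 16 was identical, and the most alike pair differed in 40.6% of counts. The labels give 1 mouse per library and no litter or batch, so p-values cover the spread between these libraries. Named elements are those called, those the study listed for this comparison, the 8 of smallest p in each direction, the 5 most abundant and the study's elements on MMU16 and MMU17, 1 of which is not reported here. Named subfamilies are those called, the 6 L1Md ones and the 5 of smallest p. Members, lists and tests were chosen with earlier results of these data known. Alternatives were DESeq2 1.42.0, DESeq2 size factors, other filters, thresholds and sums, and each library left out. After the values were seen, fits without the 5 libraries that stand apart and without the called elements, and cortex tests of the called elements, were added. No genome sequence was used here, so sequences come from GENCODE vM21 transcripts.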

Additional observations from a re-analysis of the deposited data

Results flagged for a closer look

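In 20 of 98 sets of 8 mice examined, the highest or lowest mouse stood apart from the others by Dixon's test. Its nominal rate of about 1 in 20 holds for independent, normally distributed values. These sets share mice and some hold many zeros, so that rate does not apply here. WT-nt mouse 1 accounted for 10 of the 20, all from 1 library, so they are not separate events. Among WT-nt mice it had the highest share of counts in its top element (8.09%) and in the tested elements (68.4%), the highest old share (49.3%), the lowest share of other rodent elements (40.4%), and the highest CPM of L1ME3Cz_dup549 (137181), L1MEd_dup2089 (105979), L1MEi_dup274 (43893), L1MA8_dup3848 (1347), Lx7_dup11598 (42.3) and the L1MC4 subfamily (17230.1). Without this mouse L1MC4 and L1MA8 were still called.

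TS-nt mouse 4 had the most elements with a count (74670) and the highest CPM in its group of L1_Mus3_dup17767 (80.9) and L1ME3Cz_dup944 (455). The highest TS-nt values of L1MC1_dup5016 (963 CPM, mouse 1), Lx6_dup5549 (157 CPM, mouse 7) and L1_Mm_dup2112 (179 CPM, mouse 2) also stood apart. In WT-nt, so did the highest values of Lx_dup7185 (20.0 CPM, mouse 2), Lx5c_dup5368 (425 CPM, mouse 6) and L1ME3_dup314 (521 CPM, mouse 7) and the lowest of L1Md_F2_dup57795 (6.86 CPM, mouse 7).

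The genotype difference of L1Md_F3 differed between hippocampus and cortex of the same mice by 0.25 on the log2 scale (exact permutation test over mice, adjusted p = 0.041), and by 0.13 (adjusted p = 0.0802) without WT-nt mouse 1.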

How the results depend on the processing

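The element calls were 3 with DESeq2 and the 4 groups and 3 with DESeq2 size factors in edgeR, the same elements in both, and 2 with only the non-treated mice in edgeR. They were 5 by DESeq2 on the non-treated mice alone, 0 at an adjusted p of at most 0.05, 48 at an unadjusted p below 0.05 where the log2 fold change was also 1.5 or more in size, and 1 without the 5 libraries that stand apart. When the filter asked only for a total of 10 counts (126067 elements) there were 18265 calls, 8833 higher and 9432 lower, and with no filter (270853 elements) 0, with 55524 at an unadjusted p below 0.05, and the cause was not tested. Leaving out each library gave 0 to 3. The subfamily calls were 0 at an adjusted p of at most 0.05, by DESeq2 with either set of groups (12 and 13 at an unadjusted p below 0.05), with DESeq2 size factors, with only the non-treated mice, without the called elements and without the most abundant element of each subfamily, 1 with only elements that pass the element filter, and 0 to 3 with each library left out. The treated contrast gave 12 element calls by DESeq2 and 0 by edgeR.

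No class share passed the test under any alternative. The old share difference ran from 0.38 to 1.77 percentage points, the other rodent one from -1.44 to -0.26, the young one from -0.35 to -0.05 and the log2 ratio of young to old from -0.10 to -0.02 with each library left out. The difference in elements with a count ran from -6948 to 874 and turned positive without WT-nt mouse 6 or TS-nt mouse 1, 5 or 8. The log2 ratio of the SDs of L1 totals ran from 1.33 to 2.17, with p = 0.0486 without TS-nt mouse 7.

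With each mouse left out, the tissue difference ran from 0.13 to 0.29 for L1Md_F3, from 0.042 to 0.21 for L1Md_F2 (adjusted p = 0.0308 without WT-nt mouse 4), from -0.37 to 0.085 for L1_Mm_dup4871, from -0.25 to 0.019 for L1Md_F2_dup59906, from -0.0090 to 0.18 for L1Md_A, from -0.047 to 0.19 for L1Md_F and from -0.0017 to 1.70 percentage points for the other rodent share. For L1Md_F3 the adjusted p rose above 0.05 without WT-nt mouse 1 (0.13) or any of TS-nt mice 2 to 8 (0.24 to 0.26).

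Some signs turned. Without the libraries that stand apart, log2 fold changes were 0.13 for L1ME3Cz_dup549, 0.11 for L1MEi_dup274, -0.24 for L1MC1_dup5016, -0.12 for L1Md_A_dup15761 and -0.05 for L1Md_Gf. Lx7_dup29483 was at -0.00209 by DESeq2 and -0.0059 by edgeR on the non-treated mice alone, and L1Md_F2 at 0.0073 with only filtered elements. With each library left out, the ranges were -0.25 to 0.032 for L1ME3Cz_dup549, -0.054 to 0.23 for L1MEd_dup2089, -0.038 to 0.084 for Lx7_dup29483, -0.25 to 0.021 for L1MEi_dup274, -0.26 to 0.28 for L1MC1_dup5016, -0.067 to 0.00043 for L1Md_T and -0.0011 to 0.061 for L1Md_F3. No paired analysis was possible because each mouse has 1 genotype and the replicate numbers only follow the order of the records. Only 0.985% of annotated elements passed the filter on low counts, so the comparison says nothing of the others. The common biological coefficient of variation, the spread beyond counting error, was 0.622 for elements and 0.154 for subfamilies.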
